A study of Mus musculus with 6 samples.

Results

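The plasminogen activation system was followed in mouse thyroid tumors through 7 genes, taken from the 35027 genes of the expression table. These genes were picked by their symbols and not by their values, but with earlier results of these data known. They were the activators Plau (urokinase) and Plat (tissue-type activator), the receptors Plaur and Plgrkt, the inhibitors Serpine2 and Serpinb2, and Thbs1, the matrix protein thrombospondin-1. RNA-seq had been performed on about 20000 Kate-positive cells a library, sorted by their red fluorescent reporter from digested thyroid tumors, with 3 libraries for each of 2 genotypes. YAP mice carried a thyroid-specific Cre with RIK-rtTA and tetO-YAP alleles, so that YAPS127A, a constitutively nuclear form of the Hippo pathway coactivator, was made on doxycycline (dox) in thyroid cells in which Cre had acted. BrafYAP mice carried the same alleles and LSL-Braf, which gives BrafV600E from the endogenous gene. Both groups received dox chow from 4 weeks of age by the labels, and no untreated or Braf-only library enters the comparison. By the labels, YAP replicates 1, 2 and 3 were each pooled from 3 tumors, whereas BrafYAP replicates 1, 2 and 6 each came from 1 tumor, so pooling and genotype cannot be told apart. The methods of the study describe single tumors of separate mice as the replicates and mention no pooling, and the labels were followed. The comparison asks what mutant Braf adds, at the level of RNA, to tumors that already express nuclear YAP.

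Plasminogen is a circulating proenzyme that urokinase or tissue-type plasminogen activator cleaves to plasmin, a protease that digests fibrin and other extracellular proteins. The urokinase receptor and the plasminogen receptor Plgrkt hold activator and plasminogen at the cell surface, and serpin inhibitors block the activators. Several genes of the system are known targets of growth factor and MAPK signaling, and urokinase and its receptor are often raised at the invasive edge of carcinomas.

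The levels below are the deposited TPM, a read level scaled by gene length and by library, for which the length used was the genomic span of a gene with its introns, so they compare a gene between libraries and not one gene with another. Depth was 26.2 to 36.9 M estimated reads a library. A scaled read is an estimated read on the scaling between libraries that the deposited values have, with the length division undone. Across 7319 genes, BrafYAP replicate 6 correlated with the other 5 libraries at a Pearson r of 0.733 to 0.879, whereas the other pairs lay between 0.803 and 0.979, so the fold change of each member is given with and without that library. Of the thyroid follicular markers, the transcription factor Pax8 was present in all libraries (5189 to 14663 scaled reads), but the hormone precursor Tg had 129 and 51.8 scaled reads in BrafYAP replicates 1 and 2 against 1279 to 19640 in the other 4 libraries. The macrophage gene Lyz2 reached 44655 to 595612 scaled reads, so the sorted cells carried macrophage RNA as well.

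The RefSeq promoter sequences (GRCm38.p6) of 2 members are shown because Plaur and Serpinb2 hold the letters of an AP-1 site, the element bound by Jun and Fos factors, close to their start. They are the 250 bases upstream of the start of Plaur, chr7:24462233-24462482 on the plus strand, and of Serpinb2, chr1:107511173-107511422 on the plus strand, 5′ to 3′, with the AP-1 letters in capitals.
Plaur: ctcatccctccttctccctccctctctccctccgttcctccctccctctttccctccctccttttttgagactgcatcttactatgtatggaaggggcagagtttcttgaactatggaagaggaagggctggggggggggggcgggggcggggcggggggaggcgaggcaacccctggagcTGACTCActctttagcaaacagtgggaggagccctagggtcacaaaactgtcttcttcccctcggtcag
Serpinb2: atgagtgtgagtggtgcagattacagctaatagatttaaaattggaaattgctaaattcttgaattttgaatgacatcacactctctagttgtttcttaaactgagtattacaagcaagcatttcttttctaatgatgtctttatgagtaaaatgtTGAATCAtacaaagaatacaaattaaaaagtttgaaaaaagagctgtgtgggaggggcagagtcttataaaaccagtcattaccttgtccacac
Of the 7 members, 4 were found in the promoter table (Plaur, Serpine2, Serpinb2 and Plgrkt). The AP-1 letters TGANTCA, which read the same on both strands, stood 69 bases before the start of Plaur and 94 bases before that of Serpinb2, so in 2 of these 4 members. They occur in 7.81% of the 32851 promoter windows, which run from 250 bases before to 50 bases after a start. Serpinb2 has a second listed start whose window overlaps the first and holds the same AP-1 letters. The TEAD letters GGAATG, or CATTCC on the other strand, the element through which YAP acts, were in 0 of the 4 members and in 14.7% of all windows. A match of letters is a description of the sequence and not an observed binding site.

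None of the 7 genes passed the test between genotypes. In limma on log2(TPM + 1), 6 of the 7 members reached the minimum mean of 1, and Serpinb2, which did not, was tested on scaled reads. The count of members with a Benjamini-Hochberg adjusted p under 0.05 was 0 of 6, against 0.246% of the 7319 genes tested (0.082% higher and 0.164% lower in BrafYAP). At an unadjusted p under 0.05 there were 3 of 6, Plat and Serpine2 higher and Plgrkt lower in BrafYAP, against 19.9% of all genes (10.7% higher and 9.17% lower). The same 3 genes were the ones whose groups did not overlap, against 28.2% of all genes (11.8% higher and 16.4% lower). The median log2 fold change was -0.05 over the 6 members and -0.06 over all genes. Leaving out BrafYAP replicate 6, 0 of 6 passed in limma, against 20 of the 7258 genes tested. An unadjusted p under 0.05 was found for 3, Plat, Plaur and Serpine2, against 1342 of all 7258 genes.

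On scaled reads all 7 members were tested, with 0 of 7 past the adjusted threshold, as were 0% of the 16832 genes in either direction. Here 3 of 7 had an unadjusted p under 0.05, against 20.2% of all genes (9.68% higher and 10.5% lower), and 3 of 7 did not overlap, against 28.7% (11.7% higher and 17.1% lower). With voom on the estimated reads, 0 of 7 members passed, as did 0 of 16832 genes. An unadjusted p under 0.05 was found for 3 members, against 3416 of all 16832 genes. In bulk RNA, fewer cells that make a transcript and less of it in each cell cannot be told apart.

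**Figure D1:**
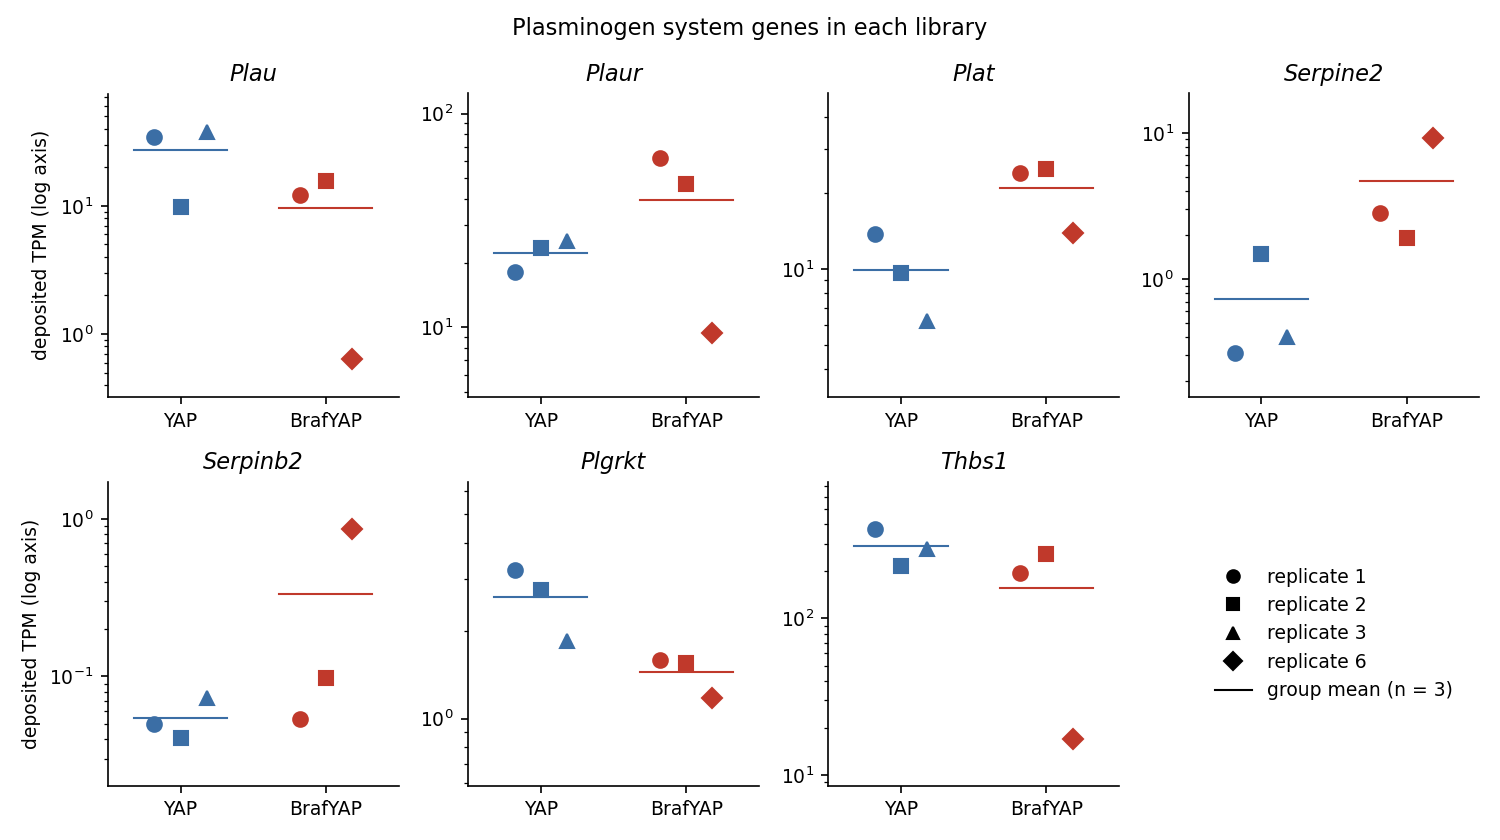
Deposited TPM (log axis, one scale a gene) of the 7 genes in the 3 YAP (blue) and 3 BrafYAP (red) libraries, with symbols for replicates and a line at each group mean. BrafYAP replicate 6, the diamond, lies lowest of all 6 libraries for Plau, Plaur, Plgrkt and Thbs1 and highest for Serpine2 and Serpinb2.

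Plau encodes urokinase, the activator that works at the cell surface, and lies on chromosome 14 from 20836660 to 20843385 (plus strand; this and the other gene positions are on mm10, from GENCODE M21). Its TPM was 34.1, 9.71 and 37.6 in YAP replicates 1, 2 and 3, and 12.2, 15.7 and 0.644 in BrafYAP replicates 1, 2 and 6. YAP replicates 1 and 3 stood above all BrafYAP libraries, but YAP replicate 2 lay below BrafYAP replicates 1 and 2, so the groups overlapped. BrafYAP replicate 6 had 147 estimated reads, where the other 5 libraries had 1609 to 7391. The mean was 27.1 ± 15.2 in YAP against 9.54 ± 7.90 in BrafYAP (SD, n = 3 each). The limma log2 fold change was -1.77 (SE 0.94, adjusted p = 0.343), with a 95% interval of -4.00 to 0.45, and it did not pass. Without BrafYAP replicate 6 it was -0.71 (limma adjusted p = 0.553).

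Plat encodes tissue-type plasminogen activator, the main activator of clot lysis (chromosome 8, 22757727 to 22782844, plus strand). Its TPM was 13.8, 9.62 and 6.21 in the YAP libraries and 23.9, 24.8 and 13.9 in the BrafYAP libraries. All BrafYAP libraries were above all YAP libraries, although the gap between BrafYAP replicate 6 and YAP replicate 1 was small. The mean was 9.88 ± 3.81 in YAP against 20.9 ± 6.03 in BrafYAP (SD, n = 3 each), a limma log2 fold change of 1.03 (SE 0.36, 95% interval 0.17 to 1.88). The unadjusted p was 0.0252 and the adjusted p of limma was 0.182. BrafYAP replicate 6 lay between the others here, and the log2 fold change without it was 1.28 (limma adjusted p = 0.157).

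Set against each other per exonic length, the 2 activators showed a different balance by library. The Plau share of Plau plus Plat transcripts, on exonic TPM, was 63.6, 41.6 and 81.0% in YAP replicates 1, 2 and 3. It was 26.5, 30.97 and 3.16% in BrafYAP replicates 1, 2 and 6. Every BrafYAP share was below every YAP share. On this length scale Plau was the more abundant activator of the pair only in YAP replicates 1 and 3. The mean share was 62.1 ± 19.8% in YAP against 20.2 ± 14.9% in BrafYAP (SD, n = 3 each), a difference of -41.8 percentage points. The two-sided exact permutation test gave p = 0.1, the smallest that 3 libraries against 3 allow, so the design cannot reach 0.05. Without BrafYAP replicate 6 the difference was -33.3 points. Which activator was the more abundant depended on the length used. On deposited TPM the Plau share was 71.2, 50.2 and 85.8% in YAP replicates 1, 2 and 3, against 4.42 to 38.9% in BrafYAP. With no length division it was 39.8, 21.3 and 61.8% in YAP, against 1.22 to 14.5% in BrafYAP.

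**Figure D2:**
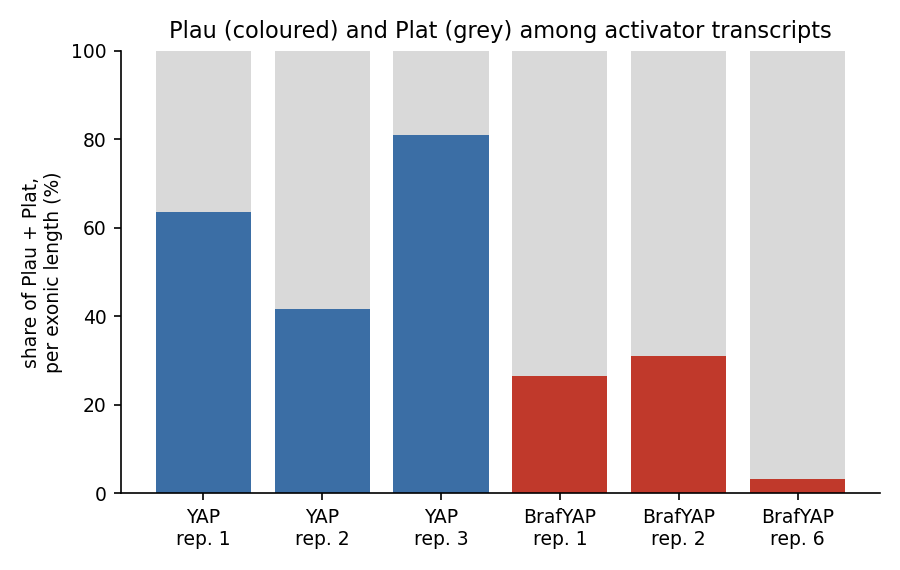
Share of Plau (coloured, blue for YAP and red for BrafYAP) and of Plat (grey) in the sum of both, in percent of exonic TPM, with one bar a library. The 3 YAP bars reach 41.6 to 81.0% and the 3 BrafYAP bars 3.16 to 30.97%.

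Plaur encodes the urokinase receptor, a GPI-anchored surface protein (chromosome 7, 24462484 to 24475968, plus strand). Its TPM was 18.1, 23.4 and 25.3 in the YAP libraries and 62.1, 47.0 and 9.42 in the BrafYAP libraries. BrafYAP replicates 1 and 2 stood above every YAP library and BrafYAP replicate 6 below every one, while the YAP libraries differed from each other by 1.40 times at most. The mean was 22.3 ± 3.77 in YAP against 39.5 ± 27.1 in BrafYAP (SD, n = 3 each). The limma log2 fold change was 0.46 (SE 0.66, adjusted p = 0.722), with a 95% interval of -1.09 to 2.003. The value turned on single libraries. Without BrafYAP replicate 6 it was 1.26 (SE 0.29, unadjusted p = 0.00426 and adjusted p = 0.128 in limma), without BrafYAP replicate 1 it was -0.04 (limma adjusted p = 0.983), and without BrafYAP replicate 2 it was 0.15 (limma adjusted p = 0.938).

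Plgrkt encodes a transmembrane receptor that binds plasminogen by its C-terminal lysine (chromosome 19, 29348599 to 29367390, minus strand). Its TPM was 3.23, 2.75 and 1.84 in the YAP libraries and 1.59, 1.55 and 1.18 in the BrafYAP libraries. All BrafYAP libraries were below all YAP libraries, within a narrow range. The mean was 2.61 ± 0.704 in YAP against 1.44 ± 0.226 in BrafYAP (SD, n = 3 each), and the limma log2 fold change was -0.55 (SE 0.22, 95% interval -1.07 to -0.03). The unadjusted p was 0.0411 and the adjusted p of limma was 0.230. On scaled reads, where the added 1 is small beside the level, the log2 fold change was -0.83 (SE 0.32, limma adjusted p = 0.211). Without BrafYAP replicate 6 it was -0.47 on TPM (limma adjusted p = 0.356).

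Serpine2 encodes protease nexin-1, a serpin that inhibits thrombin, urokinase and tissue-type activator (chromosome 1, 79794197 to 79861180, minus strand). Its TPM was 0.311, 1.49 and 0.403 in the YAP libraries and 2.84, 1.89 and 9.28 in the BrafYAP libraries, which stand for 611 to 2464 and 4867 to 21087 estimated reads over a long gene. All BrafYAP libraries were above all YAP libraries, and BrafYAP replicate 6 was 3.92 times the mean of BrafYAP replicates 1 and 2 on scaled reads. The mean TPM was 0.736 ± 0.657 in YAP against 4.67 ± 4.02 in BrafYAP (SD, n = 3 each). The limma log2 fold change was 1.55 (SE 0.50, unadjusted p = 0.0176 and adjusted p = 0.157), with a 95% interval of 0.36 to 2.73. On scaled reads it was 2.69 (SE 0.77, limma adjusted p = 0.133), the largest of the 7 members, and without BrafYAP replicate 6 it was 2.02 on that scale (limma adjusted p = 0.170).

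Serpinb2 encodes PAI-2, a urokinase inhibitor that is largely kept inside the cell (chromosome 1, 107511423 to 107535478, plus strand). Its estimated reads were 35, 24 and 51 in the YAP libraries and 35, 90 and 699 in the BrafYAP libraries. BrafYAP replicate 6 held most of the reads, with 11.3 times the mean of BrafYAP replicates 1 and 2 on scaled reads, and the other 5 libraries overlapped at low counts. The mean was 39.3 ± 11.9 scaled reads in YAP against 243 ± 327 in BrafYAP (SD, n = 3 each). The limma log2 fold change on scaled reads was 1.63 (SE 0.98, adjusted p = 0.385), with a 95% interval of -0.68 to 3.93. Without BrafYAP replicate 6 it was 0.45 (limma adjusted p = 0.636). Serpinb10 overlaps this gene on the same strand and had at most 18.5 scaled reads in any library.

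Thbs1 encodes thrombospondin-1, a matrix glycoprotein that binds plasminogen and latent TGF-beta (chromosome 2, 118111876 to 118127133, plus strand). Its TPM was 373, 215 and 277 in the YAP libraries and 195, 257 and 17.1 in the BrafYAP libraries. BrafYAP replicate 2 lay within the YAP range and BrafYAP replicate 1 just under it, so the groups overlapped, and BrafYAP replicate 6 was far below both, the mean of replicates 1 and 2 being 13.3 times its value on scaled reads. The mean was 289 ± 79.4 in YAP against 157 ± 125 in BrafYAP (SD, n = 3 each). The limma log2 fold change was -1.54 (SE 0.96, adjusted p = 0.409), with a 95% interval of -3.81 to 0.73, and without BrafYAP replicate 6 it was -0.33 (limma adjusted p = 0.640). A noncoding gene on the other strand, Gm29233, overlaps Thbs1 and had at most 235 scaled reads, and no strand is stated for the counting.

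**Figure D3:**
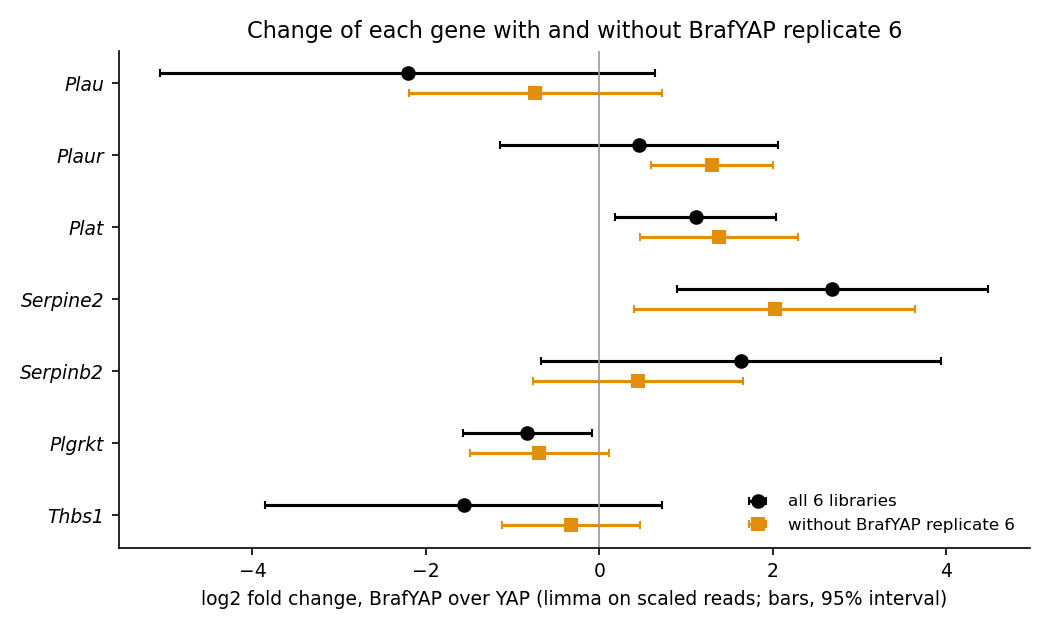
Log2 fold change of BrafYAP over YAP for the 7 genes from limma on log2(scaled reads + 1), with 95% intervals, for all 6 libraries (black circles) and without BrafYAP replicate 6 (orange squares). Leaving out that library moved Plau from -2.21 to -0.74, Plaur from 0.45 to 1.29 and Thbs1 from -1.57 to -0.33, while Plat stayed above 0 and Plgrkt below 0.

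By library, BrafYAP replicate 6 was the lowest of all 6 for 4 members (Plau, Plaur, Plgrkt and Thbs1), the highest for 2 (Serpine2 and Serpinb2) and between the others for 1 (Plat). On scaled reads the mean of BrafYAP replicates 1 and 2 was 21.7 times replicate 6 for Plau and 5.79 times for Plaur. In this library urokinase and its receptor were at their lowest level, and protease nexin-1 and PAI-2 at their highest. BrafYAP replicate 6 also had the highest Tg, at 19640 scaled reads. The part of this thyroid transcript in the levels above was not tested.

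The order of the members was read on exonic TPM, which divides by the length of a gene's exons and can be compared between genes. In YAP the median levels were 1906 for Thbs1, 302 for Plaur, 251 for Plau, 97.1 for Plat, 34.1 for Plgrkt, 8.90 for Serpine2 and 1.32 for Serpinb2. Thbs1 stood apart from Plaur, Plat from Plgrkt and Serpine2 from Serpinb2 in every library, whereas the neighbours Plaur and Plau, Plau and Plat, and Plgrkt and Serpine2 overlapped between libraries. In BrafYAP the medians were 1318 for Thbs1, 666 for Plaur, 259 for Plat, 93.3 for Plau, 61.7 for Serpine2, 21.1 for Plgrkt and 2.74 for Serpinb2. There Plat stood apart from Plau and Serpine2 from Plgrkt, and the other 4 neighbouring pairs overlapped. Thbs1 was among the most abundant transcripts, ranked 39 to 89 of all genes by exonic TPM in 5 libraries, but ranked 1488 in BrafYAP replicate 6. In that library the order was Serpine2 (200 exonic TPM), Plat (150), Plaur (130), Thbs1 (114), Serpinb2 (23.4), Plgrkt (15.6) and Plau (4.89).

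The substrate of both activators was not seen in the sorted cells. Plg, the gene for plasminogen, had 0 estimated reads in all 6 libraries, which allows up to 3 reads, or 0.0813 to 0.115 reads per M reads, for counting error only. Around the 7 members, 54 genes of plasmin formation, inhibition, surface binding, thrombospondins, clade B serpins and cell-surface coagulation were read on scaled reads. Of these, 52 were in the table and 42 had a mean of at least 10 scaled reads. None of the 42 passed (limma adjusted p from 0.106 to 0.989). An unadjusted p under 0.05 was found for 9, 6 higher and 3 lower in BrafYAP, against 20.2% of all genes (9.68% higher and 10.5% lower). With voom 0 of 42 passed and 7 had an unadjusted p under 0.05, against 3416 of all 16832 genes. The groups did not overlap for 6 genes higher and 1 gene lower in BrafYAP, against 28.7% of all genes (11.7% higher and 17.1% lower). The median log2 fold change was 0.23, against -0.12 over all genes.

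The 4 further inhibitors tested had a median log2 fold change of -0.39, and of 0.36 without BrafYAP replicate 6, 0 of 4 passing in limma in either fit. In plasmin formation 0 of 2 tested genes passed, the membrane proteases St14 (matriptase, log2 fold change 1.43, and 1.23 without BrafYAP replicate 6) and Hpn (hepsin, 2.05, and 1.52 without it), and both overlapped between groups. Of 12 binding and clearance genes 0 passed, and their median log2 fold change was 0.01, or 0.62 without BrafYAP replicate 6. Of 7 cell-surface coagulation genes 0 passed, and their median was 0.05, or 0.52 without that library. The one separated gene of binding and clearance was Vldlr, a lipoprotein receptor that takes up protease and inhibitor complexes, with 151 to 216 estimated reads in YAP and 339 to 893 in BrafYAP. Its limma log2 fold change was 1.09 (SE 0.44, adjusted p = 0.228), and 0.67 without BrafYAP replicate 6.

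Of 6 thrombospondin and receptor genes 0 passed. Their median log2 fold change was 1.81 (1.02 without BrafYAP replicate 6), and 3 did not overlap and were higher in BrafYAP, against 11.7% of all genes. Cd47, a receptor of thrombospondin-1, had 1382, 3073 and 2049 estimated reads in YAP and 4270, 6471 and 6312 in BrafYAP, a limma log2 fold change of 1.19 (SE 0.39, adjusted p = 0.161), and 1.13 without BrafYAP replicate 6. Thbs4 had 0, 7 and 0 estimated reads in YAP and 29, 34 and 393 in BrafYAP. Comp, the cartilage thrombospondin, had 2, 15 and 19 in YAP and 25, 51 and 356 in BrafYAP. For both, YAP libraries were near or at 0 and BrafYAP replicate 6 held most of the reads, so the fitted folds are no bound on the change, and neither passed (limma adjusted p = 0.120 and 0.238).

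The 11 tested clade B serpins, relatives of Serpinb2, had a median log2 fold change of -0.58, and 0 passed. The median was -0.06 over 10 genes without BrafYAP replicate 6. Single genes moved either way without that library, Serpinb9b from -2.18 to -0.05 and Serpinb12 from -0.58 to -1.44. Serpinb1a, an inhibitor of neutrophil proteases, had 3024, 1986 and 2644 estimated reads in YAP and 771, 1886 and 711 in BrafYAP. On scaled reads all BrafYAP libraries were below all YAP libraries, with a limma log2 fold change of -1.56 (SE 0.37, adjusted p = 0.106), and -1.28 without BrafYAP replicate 6. Serpinb7 had 14, 0 and 0 estimated reads in YAP and 37, 124 and 141 in BrafYAP, and did not pass (limma adjusted p = 0.107).

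**Figure D4:**
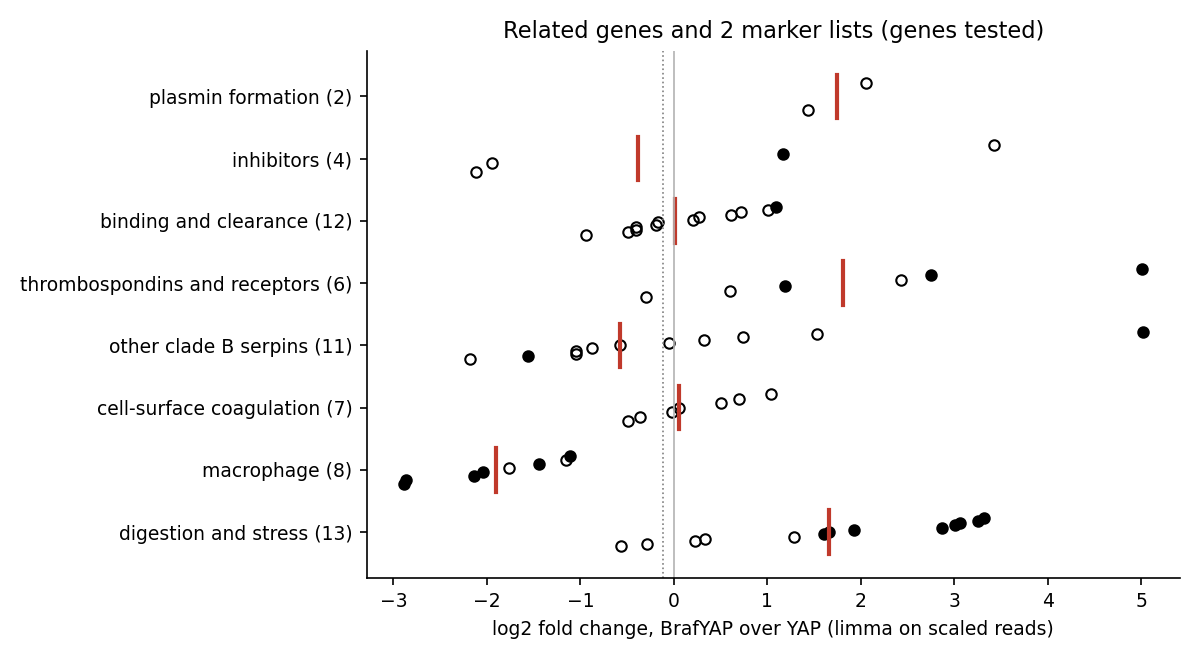
Log2 fold change of BrafYAP over YAP on scaled reads for each gene tested in 6 lists of related genes and in the macrophage and digestion and stress lists, with numbers tested in brackets, list medians as red lines and the median of all genes, -0.12, as a dotted line. Filled points are genes whose groups do not overlap, and they lie left of 0 for the macrophage list (6 of 8) and right of 0 for the digestion and stress list (8 of 13). Over all genes, 17.1% did not overlap and were lower in BrafYAP, and 11.7% did not overlap and were higher.

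Levels of macrophage markers and of stress genes differed between the libraries of the 2 genotypes, with no gene of either list past the adjusted threshold. All 8 macrophage markers were lower in BrafYAP with an unadjusted p under 0.05, against 10.5% of all genes. Of these markers 6 did not overlap, against 17.1% of all genes, and 0 passed the adjusted threshold in limma. Their summed level was 219722 to 755058 scaled reads in YAP and 66743 to 226695 in BrafYAP, which overlap, and their median log2 fold change was -1.90, or -1.40 without BrafYAP replicate 6. Macrophages are known to express Plau, Plaur and Thbs1, and the part of this difference in the levels above was not tested. The 13 genes of tissue digestion and stress included AP-1 genes that did not move alike. The limma log2 fold change was 2.87 for Jun, 3.01 for Junb and 1.61 for Jund. It was 0.34 for Fos and -0.57 for Fosb, whose groups overlapped. Of the 13, 8 were higher in BrafYAP without overlap, against 11.7% of all genes. The same 8 had an unadjusted p under 0.05, against 9.68% of all genes higher in BrafYAP, and 0 of 13 passed in limma. The sums of the 13 genes were 165264 to 355272 scaled reads in YAP and 459172 to 682232 in BrafYAP. Their median log2 fold change was 1.66, or 1.43 without BrafYAP replicate 6. The name of the list is no finding on cause, and the parts of tissue digestion and of mutant Braf in these levels were not tested. The levels of Plat and Serpine2 were higher in BrafYAP too, and the part of this list in them was not tested.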

How the data were processed

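RNA-seq libraries of sorted thyroid tumor cells were grouped by GEO's titles. By the submitters' processing notes and the study's methods, base calls were converted with bcl2fastq 2.2, and the authors aligned reads with STAR 2.6.1d to mm10, counted them by Partek E/M over an Ensembl annotation, and deposited 1 table of TPM with 0.0001 added. Its columns total 181218, and 0 columns lacked a sample. Low values (under 200 reads) multiplied by genomic span lay within 0.05 of whole reads for 71.4 to 75.7% of values, and by exonic length for 9.39 to 12.5%, so the deposited TPM had been divided by genomic span. Estimated reads, scaled reads and exonic TPM were computed with GENCODE M21 lengths for the 34640 of 35027 symbols at one locus. Without molecular identifiers, limits on reads cover counting error alone.

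TPM are not counts, so BrafYAP and YAP were compared two-sided by limma 3.58.1 in R 4.3.3 (eBayes with a trend) on log2(value + 1), for all genes with a mean of at least 1 TPM, or 10 scaled reads, with Benjamini-Hochberg adjustment over all of them. Fold changes on this scale understate those of low genes. The fit was checked on simulated data with known answers, which held no low genes and no library that stands apart as BrafYAP replicate 6 does. Members, related gene lists (written from general knowledge) and markers were chosen with earlier results of these data known. Named related genes are those whose groups do not overlap with an unadjusted p under 0.05, at most 4 a list. Hpn and St14 were added after their values were seen. Serpinb5, Serpinb9b and Serpinb12 lie outside this rule too and were named by their values in alternative fits. Some items that the rules name are not reported here. Alternatives covered the pseudocount, filter, normalization, trend, library weights, length, voom, protein-coding genes, the replicate block and each library left out.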

Additional observations from a re-analysis of the deposited data

How the results depend on the processing

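Of 251 alternatives, 243 kept direction and side of the threshold and 2 reversed: the log2 fold change of Plaur without BrafYAP replicate 1 was -0.043 on TPM and -0.067 on scaled reads, where it reached 1.29 without BrafYAP replicate 6. The other 6 were under array weights. This setting, in which limma gives a library that stands apart less weight, brought 2 members past the threshold in limma, Plat (log2 fold change 1.597, adjusted p = 0.00877) and Serpine2 (1.22, adjusted p = 0.0309), against 0 in the main setting, and 5 of the related genes (Cd47, Serpinb1a, Serpinb5, Serpinb7 and Thbs4), against 0. With these weights 1393 of 7319 genes passed on TPM, against 18, and 1886 of 16832 on scaled reads, where the related genes were tested, against 0. The cause was not tested. Under the other settings with all libraries, 0 to 79 genes passed on TPM, and leaving out YAP replicate 2 gave 465. Leave-one-out log2 fold changes on TPM ran from -2.39 to -0.71 for Plau, 0.76 to 1.28 for Plat, -0.043 to 1.26 for Plaur, -0.71 to -0.43 for Plgrkt, 1.00 to 1.92 for Serpine2 and -2.25 to -0.33 for Thbs1, and from 0.45 to 2.43 for Serpinb2 on scaled reads. The Plau share difference ran from -52.1 to -32.4 points in leave-one-out and was -43.4 on genomic span and -31.7 with no length division. Median-ratio rescaling moved the median of all genes on scaled reads from -0.12 to 0.01, and no member changed direction under it. With a minimum mean of 10 TPM, Serpine2 and Plgrkt gave no value.

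The replicate numbers are not stated to pair libraries. Only 2 numbers are shared, and same-numbered libraries deviated together with r of -0.05 and 0.06 across genes. With the replicate block, 0 members passed in limma, with log2 fold changes of -0.38 for Plau, 1.01 for Plat, 1.35 for Plaur, -0.63 for Plgrkt, 0.88 for Serpine2 and -0.34 for Thbs1 on TPM and 0.67 for Serpinb2 on scaled reads. The block leaves BrafYAP replicate 6 and YAP replicate 3, whose numbers are not shared, out of the estimate. Of the members, 6 had at least 147 estimated reads in every library, and Serpinb2 had as few as 24.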

Other observations

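Over the 6 libraries and 11148 genes with a mean of at least 100 scaled reads, the genes most like each member by Pearson r were Ddx23, Rnf187 and Tmem65 for Plau (highest r 0.998), Pqlc2, Zfp57 and Mapk6 for Plaur (0.995), and Ccdc136, Armcx5 and Arl2 for Plat (0.990). They were Reep3, Uaca and Mipol1 for Serpine2 (0.997), Rock1, Hdhd3 and Rasa1 for Serpinb2 (0.993), Ulbp1, Recql and Vps35l for Plgrkt (0.994) and Dcbld2, Zc4h2 and Glipr2 for Thbs1 (0.999). With 6 points, 1 of them BrafYAP replicate 6, such values describe these libraries only. Between genes of the system, Plau and Thbs1 had r of 0.972 over 6 libraries and 0.834 over the 5 without BrafYAP replicate 6.

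Among the other marker lists on scaled reads, 0 genes passed the adjusted threshold in limma over all libraries. The sums overlapped between groups for fibroblasts (14291 to 28593 in YAP, 11579 to 28235 in BrafYAP) and epithelium (138594 to 399857 and 170056 to 382355). For 4 lists the overlap came from BrafYAP replicate 6. Platelet markers summed to 1069 to 1933 in YAP and to 3346, 2807 and 366 in BrafYAP replicates 1, 2 and 6, with Gp9 at 0. T cell markers summed to 69.0 to 268 and to 47.6, 9.42 and 139. Endothelial markers summed to 427 to 3548 and to 368, 210 and 2717. Thyroid follicular markers summed to 13915 to 31974 and to 12878, 7523 and 28615. Without BrafYAP replicate 6 the thyrotropin receptor gene Tshr passed in limma (log2 fold change -5.97, adjusted p = 0.0439). In that fit 142 of the 16588 genes tested passed, 35 higher and 107 lower in BrafYAP. Tshr was at 0 scaled reads in both remaining BrafYAP libraries, so that its fitted fold is no bound. The neutrophil sums did not overlap (308 to 1003 and 114 to 143). Csf3r and Mmp8 carried the sum in YAP and were lower in BrafYAP. In BrafYAP replicate 6, S100a8 held 67.5 of the 132 scaled reads. S100a8 had a log2 fold change of 1.15, S100a9 and Retnlg were too low to be tested, and Ly6g was at 0.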
